A study of Mus musculus with 3 samples.

Results

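MEIS2 peaks that lay far from any protein-coding gene, here called desert peaks, were described in the embryonic mouse forebrain. A desert peak was a peak of the MEIS2 replicate 1 list on chromosomes 1 to 19 that shared at least 1 bp with a peak of MEIS2 replicate 2 and none with a peak of the library made without a primary antibody. Its summit, the position of the highest tag stack, also had to lie outside every gene of the mm10 RefSeq table and over 200 kb from the nearest protein-coding gene. The rule was met by 4416 of 44673 reproducible peaks on these chromosomes, a share of 9.885% (95% Wilson interval 9.61 to 10.2%). The intervals given here cover counting error only and treat peaks as independent, which peaks lying close together are not. The word desert refers to protein-coding genes: 621 of the 4416 peaks were also over 200 kb from a gene of any kind, and the nearest gene was a pseudogene for 2061 peaks and a long noncoding RNA gene for 1562.

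The series profiled the lateral ganglionic eminence (LGE), the zone that gives rise to striatal projection neurons, at embryonic day 14.5 in wild-type mice of the CD1 strain. There were 2 libraries with a polyclonal MEIS2 antibody and 1 library without a primary antibody, each from dissected cells of the same tissue, strain and age. CUT&Tag tethers the transposase Tn5 to an antibody so that DNA beside the antibody's target is cut and receives sequencing adapters. The labels do not say whether the MEIS2 libraries came from separate embryos, so the spread between them may be technical, and 2 libraries against 1 allow no test over samples. After dropping repeated positions the peak caller used 7618406 tags for MEIS2 replicate 1, 6559629 for MEIS2 replicate 2 and 6337375 for the control without antibody. The files hold peaks and no expression values, so markers of the LGE were not checked here.

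MEIS2 belongs to the TALE homeodomain proteins, which bind DNA together with PBX partners, and it is expressed in the LGE and in developing striatal neurons. Gene deserts in mammalian genomes often flank developmental regulators and neuronal adhesion genes and are known to hold enhancers that act over long distances. A peak in a desert does not say which gene, if any, it acts on, and the flanking genes named here are the nearest protein-coding genes on either side.

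The letters of a desert peak could be read where it overlapped a RefSeq promoter window, which spans 250 bases before to 50 bases after a gene's start (GRCm38.p6, the assembly that mm10 names). That held for 4 of the 4416 desert peaks, each at a long noncoding RNA gene: Gm26901, A230004M16Rik, Gm41479 and I730028E13Rik. The part of the window inside the peak is shown for the 3 with the longest such stretches, on the gene's strand from 5′ to 3′, so that their letters can be set beside their values.
Gm26901: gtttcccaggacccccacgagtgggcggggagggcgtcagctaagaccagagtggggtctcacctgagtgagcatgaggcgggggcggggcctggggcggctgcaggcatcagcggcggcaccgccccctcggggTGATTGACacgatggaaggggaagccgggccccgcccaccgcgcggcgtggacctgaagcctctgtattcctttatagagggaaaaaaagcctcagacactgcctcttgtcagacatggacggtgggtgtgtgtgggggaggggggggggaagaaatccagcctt
A230004M16Rik: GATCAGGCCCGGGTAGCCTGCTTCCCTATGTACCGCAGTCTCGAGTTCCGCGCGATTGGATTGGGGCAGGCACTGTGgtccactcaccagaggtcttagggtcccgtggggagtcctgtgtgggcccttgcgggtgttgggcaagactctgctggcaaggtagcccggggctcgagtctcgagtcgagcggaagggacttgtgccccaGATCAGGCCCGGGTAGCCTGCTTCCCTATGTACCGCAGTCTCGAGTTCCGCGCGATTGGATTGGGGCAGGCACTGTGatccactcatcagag
I730028E13Rik: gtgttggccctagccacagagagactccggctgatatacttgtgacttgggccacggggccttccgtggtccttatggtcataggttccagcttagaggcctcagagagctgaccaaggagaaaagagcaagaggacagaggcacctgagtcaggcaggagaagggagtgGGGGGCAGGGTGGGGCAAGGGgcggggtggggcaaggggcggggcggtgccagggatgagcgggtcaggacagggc
In Gm26901 (minus strand, chr1:7398047-7398346) the capitals mark TGATTGAC, a PBX and MEIS type octamer, which starts at base 136 of the stretch, 95 bases from the replicate 1 summit. In A230004M16Rik (plus strand, chr11:41710094-41710393) the capitals mark a run of 77 bases that occurs at base 1 and again, letter for letter, at base 209. In I730028E13Rik (plus strand, chr9:61138265-61138510) the capitals mark the 21 bases centred on the summit. The share of G and C in the 4 stretches lay between 61.7% in Gm41479 and 65.7% in Gm26901. The share over all promoter windows is not given here, so these values have no background.

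Both strands of the 4 stretches were searched for 6 short motifs and the CTCF consensus. TGACAG, the hexamer of MEIS and PREP proteins, was in none of the 4 and in 19.2% of all 32851 RefSeq promoter windows. TGATTGAC, added after the stretches had been read, was in 1 of the 4 and in 0.770% of all windows. No match was found for TGATTGAT (PBX with HOX, 0.746% of windows), TAATTA (homeodomain, 5.29%), CAGCTG (E-box, 16.3%), ACAAAG (SOX, 18.7%) or the CTCF consensus (0.557%). TGATTGAC and TGATTGAT share their first 7 letters but cannot match at the same place. A match is a description of these letters and not a binding site. The stretches of Gm41479 and I730028E13Rik had 81 and 246 bases, where a whole window has 300, so the shares are not over equal lengths. In A230004M16Rik and Gm41479 the summit lay outside the stretch. A motif missing from a stretch may thus still be in the rest of the peak.

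The peaks at these promoters differed in height. Fold enrichment here is the deposited value of the peak caller: summit pileup plus 1, divided by the pileup expected there plus 1. The A230004M16Rik peak (chr11:41709780-41710422) reached 15.7-fold in replicate 1 and 14.8-fold in replicate 2. The Gm26901 peak (chr1:7397688-7398657), 224.7 kb from Pcmtd1, reached 7.99-fold and 6.70-fold. The Gm41479 peak (chr16:80294533-80294735), 906.1 kb from the adhesion gene Ncam2, reached 5.91-fold and 7.495-fold. The I730028E13Rik peak (chr9:61138124-61138510), 233.9 kb from the Groucho corepressor gene Tle3, reached 3.94-fold and 6.02-fold. Only the first of the 4 was above the upper quartile of all desert peaks in both replicates.

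Over all 4416 desert peaks, fold enrichment in replicate 1 ran from 1.67 to 25.5 with a median of 8.23 and quartiles of 6.06 and 12.2. In replicate 2 it ran from 1.75 to 26.5, with a median of 7.53 and quartiles of 5.62 and 10.8. The median pileup at the summit was 18 tags in replicate 1 and 15 in replicate 2, so most values rest on few tags. At the median fold of replicate 1, 121 peaks shared exactly the same value, since 13 tags over the genome-wide expectation of 0.701 give that fold. The local expectation stood at that lowest level for 35.6% of desert peaks and 22.2% of the other reproducible peaks.

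The replicates ranked the desert peaks similarly. Across the peaks Spearman's rho of the fold enrichments was 0.799 and Pearson's r was 0.861, a description over peaks that share their 2 libraries. Of the 100 highest peaks of replicate 1, 52 were also among the 100 highest of replicate 2. Summits lay within 50 bp of each other for 70.7% of desert peaks, against 67.1% of intergenic peaks 50 to 200 kb from a protein-coding gene, 63.5% of those nearer than that, 57.2% of peaks inside genes and 39.3% of peaks within 1 kb of a gene end. The rule required overlap with the partner, which by itself holds the summits of narrow peaks close together. Median widths in replicate 1 were 335, 328, 315, 336 and 556 bp in the same order. The part of width in these shares was not tested. Replicate 1 gave the higher fold for 65.2% of desert peaks and 67.0% of the other reproducible peaks. The 4416 desert peaks met 4391 different replicate 2 peaks, because 48 of them shared a partner with another.

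**Figure D1:**
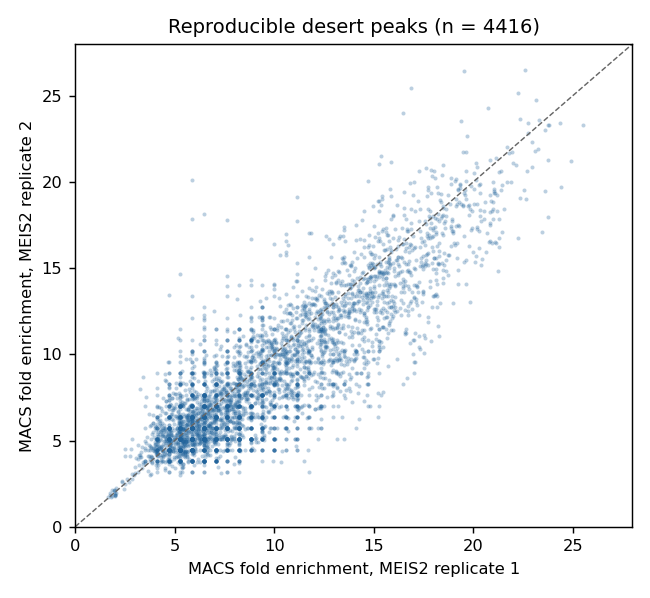
Deposited fold enrichment of each of the 4416 desert peaks in MEIS2 replicate 1 (x axis) and in its replicate 2 partner (y axis), 1 point per peak, with the line of equal values dashed. The points spread along the line (Spearman's rho 0.799), and 65.2% of them lie on the replicate 1 side.

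Desert peaks had higher median fold enrichment than reproducible peaks inside genes in both libraries. The other positions, genes of any kind included for gene bodies and gene ends, were filtered in the same way for a partner and for clearance of no-antibody peaks. The desert median exceeded that of 16167 gene body peaks (6.70 and 5.97) by 1.53 in replicate 1 and 1.56 in replicate 2. It exceeded that of 6922 intergenic peaks up to 50 kb from a protein-coding gene (7.11 and 6.38) by 1.12 and 1.16. Each of these differences had the same sign in both replicates. The desert median itself was 0.699 higher in replicate 1 than in replicate 2. That is a shift between libraries and does not measure the spread of differences made within a library. Against 4074 intergenic peaks 50 to 200 kb away (8.04 and 7.05) the difference was smaller, 0.19 and 0.48. Against 13094 peaks within 1 kb of a gene end (7.46 and 6.32) it was 0.776 and 1.22. The expected pileup, the denominator of the fold, had replicate 1 medians of 0.998 for desert peaks and intergenic peaks 50 to 200 kb away, 1.05 for the nearer ones, 1.17 for gene body peaks and 1.38 for gene end peaks. In replicate 2 the medians were 0.859 for desert and gene body peaks, 0.826 for both intergenic groups and 0.907 for gene end peaks, and the part of the denominator in the result was not tested. The median pileup itself was 18 and 15 tags for desert peaks, 15 and 11 for gene body peaks and 18 and 12 for gene end peaks.

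**Figure D2:**
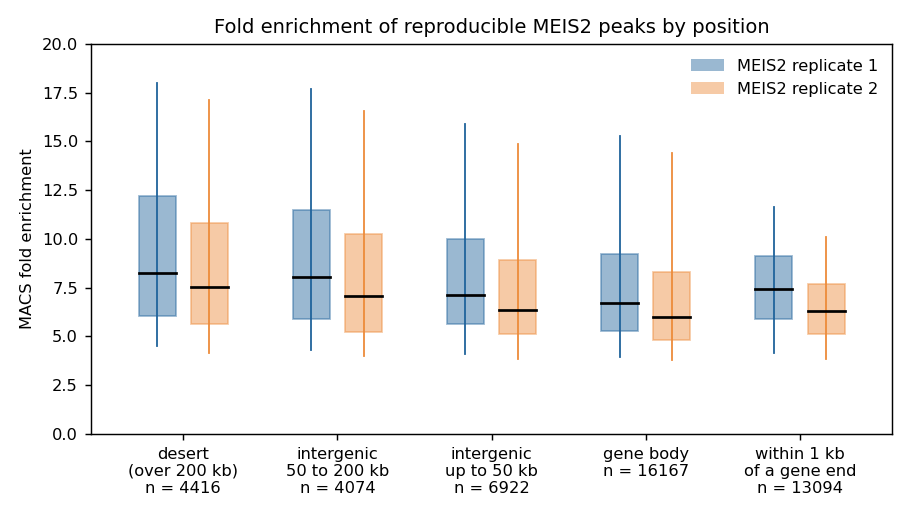
Deposited fold enrichment (y axis) of reproducible MEIS2 peaks by position (x axis) in replicate 1 (blue) and replicate 2 (orange); boxes span the quartiles, black lines are medians and thin lines run from the 5th to the 95th percentile of peaks. Desert peaks have the highest median in each replicate, 8.23 and 7.53, close to the 8.04 and 7.05 of intergenic peaks 50 to 200 kb away.

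At least 15-fold in both replicates were 352 desert peaks, 7.97% (7.21 to 8.81%), where the share over all reproducible peaks was 3.3%. The share was 6.80% (6.07 to 7.61%) for intergenic peaks 50 to 200 kb away, so those intervals overlap. It was 3.28% (3.02 to 3.56%) inside genes and 0.290% (0.212 to 0.398%) within 1 kb of a gene end. Widths did not follow that order: the median desert peak spanned 335 bp in replicate 1, the median gene body peak 336 bp and the median gene end peak 556 bp.

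Peak height varied little with distance beyond the 200 kb limit. There were 1250 desert peaks at 200 to 300 kb, 1317 at 300 to 500 kb, 1261 at 500 to 1000 kb and 588 farther out. The median fold in replicate 1 was 8.23 in each of these bins, the value at which 121 desert peaks were tied. Equal medians in replicate 1 are thus a coarse measure. In replicate 2 the medians were 7.04, 7.58, 7.65 and 7.53. Peaks per Mb of such sequence were 12.2, 10.9, 10.25 and 9.92, in the same order of distance. The nearest members inside the limit were a 6.02-fold and 6.185-fold peak just over 200 kb from Mtrr (chr13:68360645-68360846), the A230004M16Rik peak described above, and a 13.5-fold and 9.39-fold peak 200.1 kb from the retinoic acid receptor gene Rarb (chr14:17282326-17282716). Just outside it, each 199.9 kb away, lay peaks of 4.704-fold and 4.46-fold near Rp1, 12.6-fold and 12.5-fold near Ttc14, and 9.41-fold and 8.93-fold near Ascc3.

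How often desert peaks repeated depended on the list counted from; the rule uses the partner, so these shares describe the step that chose the peaks. Of replicate 1 peaks in deserts that were clear of no-antibody peaks, 73.6% (72.5 to 74.7%) had a replicate 2 partner, against 64.6% of all such replicate 1 peaks. Counted from the replicate 2 list, 55.0% (54.0 to 56.1%) of 8103 desert peaks had a replicate 1 partner, against 63.7% of all. The desert share was thus above the background in the first direction and below it in the other. Gene end peaks were above the background in both directions, with 75.7% and 87.4%. The replicate 1 list held 6954 desert peaks before any filter, 9.48% of its peaks on chromosomes 1 to 19, and deserts held 12.2% of the replicate 2 list.

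Partnering rose with height within the deserts. When replicate 1 desert peaks were put into 10 equal bins by fold, 46.3% of the lowest bin, up to 4.704-fold, had a partner, counted over peaks clear of the no-antibody list. In the bin from 7.32-fold to 8.63-fold, 85.6% had one, and in the highest bin, from 15.7-fold, 100% had one. Overlap with the no-antibody list was 8.76% in the lowest bin, fell to 5.18% in the bin from 5.88-fold to 6.47-fold, and was 34.0% in the highest. The desert peaks without a partner had a median fold of 5.43 in replicate 1.

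The no-antibody library had more of its peaks in deserts than the MEIS2 libraries did. Deserts took 24.4% (23.5 to 25.3%) of its 8670 peaks and 16.9% of the sequence, 405.9 Mb counted on a grid of 1 kb. Of desert peaks shared by the MEIS2 replicates, 17.2% (16.2 to 18.2%) overlapped a no-antibody peak and were left out by the rule, against 8.22% of all shared peaks and 0.856% at gene ends. Per Mb of desert there were 10.9 reproducible MEIS2 peaks and 5.21 no-antibody peaks, a ratio of 2.09. Outside deserts the densities were 20.15 and 3.28, a ratio of 6.14. Of the desert peaks kept, 19.7% still had a no-antibody peak within 10 kb, against 8.10% of the other reproducible peaks. With these removed, 3546 desert peaks remained, with median folds of 8.29 and 7.62. Background cutting by Tn5 without an antibody is what this library measures; how far it adds to the tags in the desert peaks kept was not tested.

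The 10 highest desert peaks, ranked by the lower of the replicates' folds, all reached at least 22.6-fold in replicate 1 and 22.9-fold in replicate 2. First was chr1:35414156-35414537, with 24.4-fold and 23.4-fold from pileups of 67 and 63 tags. It lay 534.8 kb from Plekhb2, its nearest protein-coding gene, in the desert that reaches to the heparan sulfate sulfotransferase gene Hs6st1. Next was chr8:15389131-15389495, 255.9 kb from the sarcomere gene Myom2, with Csmd1 on its other side, at 23.3-fold and 23.6-fold. The peak at chr5:69917239-69917763 lay between Gnpda2, 325.3 kb away, and the GABA-A receptor gene Gabrg1, and reached 25.5-fold and 23.3-fold. Each of these values lay far above the upper quartiles of all desert peaks, 12.2 and 10.8.

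The peak at chr3:46921049-46921526, at 23.8-fold and 23.3-fold, lay between Pabpc4l and the protocadherin gene Pcdh18. The peak at chr5:46747450-46747849, at 23.1-fold and 24.7-fold, lay 889.9 kb from Lcorl in the desert that reaches to Slit2, which encodes a repulsive axon guidance ligand. The peak at chr3:4442777-4443130, at 22.7-fold and 22.9-fold, lay 775.2 kb from Zfhx4, a zinc finger homeobox gene of the developing brain. The peak at chr1:121035663-121036008, at 22.7-fold and 23.4-fold, lay between the homeobox gene En1 and Insig2, a regulator of sterol synthesis. The remaining members of the 10 were near Pla2g4a (1281 kb, 23.8-fold and 23.3-fold), Ccser2 (329.4 kb, 23.6-fold and 23.0-fold) and Gm20594 (356.8 kb, 22.6-fold and 26.5-fold). The 10 peaks were 341 to 525 bp wide, and the nearest gene of any kind lay between 1.51 and 332.2 kb away.

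The 5 peaks farthest from a protein-coding gene ranged from 4.28-fold to 15.03-fold in replicate 1. The farthest, chr18:28015507-28015795, lay 2250 kb from Pik3c3, a lipid kinase gene of autophagy, at 10.0-fold and 7.65-fold from pileups of 16 and 11 tags. In the desert between Olfm4 and Pcdh17 on chromosome 14, peaks 2159 and 2060 kb from Olfm4 reached 5.81-fold in replicate 1, and 6.36-fold and 5.48-fold in replicate 2. Between Cntnap5b and Cdh20 on chromosome 1, neighbouring peaks 2117 and 2115 kb from Cntnap5b differed: chr1:102607311-102607573 reached 4.28-fold and 5.51-fold, and chr1:102605030-102605804 reached 15.03-fold and 14.99-fold.

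The widest desert peaks were wide in replicate 2 as well, with 1 exception. The widest, chr18:79723747-79726065, spanned 2319 bp between Setbp1 and Gm36718 at 6.12-fold and 6.75-fold. Next were peaks of 2161 bp near the corepressor gene Tbl1xr1 (6.13-fold and 7.48-fold), 2101 bp near Ptchd4 (7.28-fold and 7.76-fold), 1921 bp near the collagen-modifying enzyme gene Plod2 (6.80-fold and 6.68-fold) and 1916 bp near Akr1e1 (8.29-fold and 8.69-fold). The exception was the Ptchd4 peak, whose partner ran from 41717643 to 41718329 and so covered a part of it. Over all desert peaks 24.0% were over 500 bp wide, and Spearman's rho between width and fold in replicate 1 was 0.542.

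Desert peaks were spread over most deserts. Gaps between neighbouring protein-coding genes gave 699 deserts, and 573 of them (82.0%) held a desert peak, with a median of 4 peaks per desert; a further 56 peaks lay beyond the outermost protein-coding genes of a chromosome. The number of peaks followed the length of sequence over 200 kb from a protein-coding gene, called the core here, with a Spearman's rho of 0.883 over the deserts. The 126 deserts without a peak had a median core of 0.0435 Mb, and the others 0.434 Mb. The 46 deserts with at least 20 peaks held 29.5% of the desert peaks and 27.6% of the desert sequence. By chromosome, density ran from 8.57 peaks per Mb on chromosome 19 to 12.7 on chromosome 5.

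The deserts with the most peaks held 38 to 52 each. The gap between Slitrk5, a synaptic adhesion gene, and the glypican gene Gpc5 on chromosome 14 held 52 peaks, 18.2 per Mb of core, with median folds of 7.83 and 7.81. The gap from Igfbp7 to Adgrl3, which encodes a latrophilin, held 42 peaks (8.02 and 7.69). The gap from the protocadherin gene Pcdh7 to G6pd2 held 41 (8.82 and 7.62), and that from Dsel to the contactin-associated gene Cntnap5a held 40 (7.06 and 6.33). The gap from Cntnap5b to the cadherin gene Cdh20 held 38 (8.56 and 8.08), as did that from D3Ertd751e to Pcdh10, whose core was slightly longer. In the first 5 of these gaps, apart from that at Dsel, medians lay within 0.699 of those of all desert peaks in each replicate. The same 5 gaps also held 17 to 29 no-antibody peaks each.

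**Figure D3:**
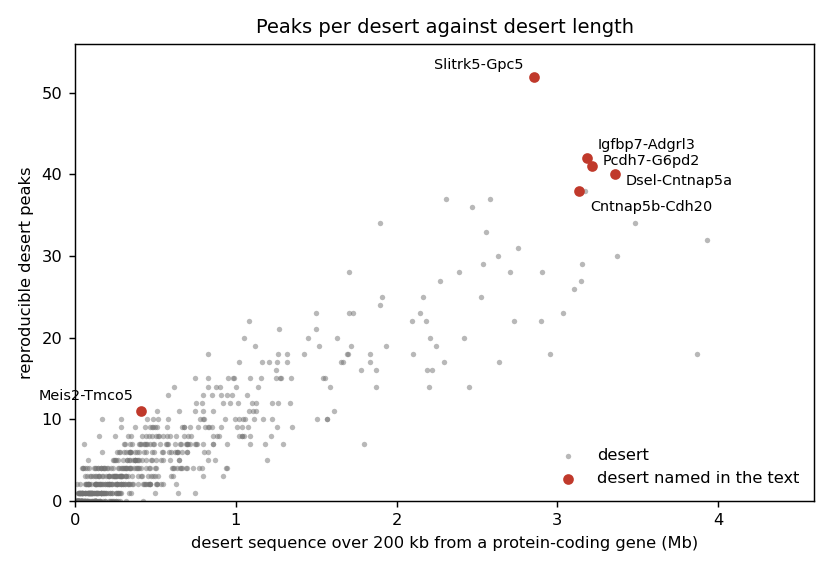
Number of desert peaks (y axis) against the length of desert sequence over 200 kb from a protein-coding gene in Mb (x axis), 1 point for each of 699 deserts, with named deserts in red. Counts rise with length up to 52 peaks between Slitrk5 and Gpc5, and the desert beside Meis2, with 11 peaks in 0.408 Mb, lies above deserts of similar length.

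The desert beside Meis2 itself had the highest density among the 301 deserts with a core of at least 0.4 Mb, a comparison made after its values were seen. That rank depends on the limit, since the Meis2 core of 0.408 Mb lay just above it and some shorter deserts were denser. Examples are BC048507 to Mtrr, with 10 peaks in 0.287 Mb, and Rtl1 to Dio3, with 10 in 0.17 Mb. The gap of 0.811 Mb between Meis2 and Tmco5 on chromosome 2 held 11 desert peaks, 27.0 per Mb of core, where the median of the 301 deserts was 10.2 and the next 2 were near Zfp804b with 22.8 and between Mctp2 and Rgma with 22.5. The highest of the 11, chr2:116274170-116274552, lay 206.8 kb from Meis2 at 19.1-fold in replicate 1 and 20.2-fold in replicate 2, with pileups of 55 and 62 tags. A peak 386.9 kb from Meis2, chr2:116454312-116454692, reached 16.8-fold and 16.4-fold. The lowest in replicate 1 was chr2:116489993-116490256 at 4.18-fold and 4.49-fold, and the lowest in replicate 2 was chr2:116301365-116301542 at 7.06-fold and 4.46-fold. Between them, chr2:116484198-116484510 reached 14.8-fold and 11.5-fold, chr2:116628058-116628280 reached 10.6-fold and 10.8-fold, and chr2:116494146-116495064 reached 9.52-fold and 9.57-fold. The other 4 ran from 6.47-fold to 8.23-fold in replicate 1 and from 5.02-fold to 7.01-fold in replicate 2. The 11 peaks had medians of 8.23 and 7.01, close to those of all desert peaks, and 3 no-antibody peaks lay in the same core.

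Of 29 regulators of the LGE and striatum, 15 flanked a desert and 12 flanked at least 1 desert peak. Their deserts held 88 peaks, 1.99% (1.62 to 2.45%) of all desert peaks, and 1.92% of desert sequence, so the share did not differ beyond counting error. Isl1, a LIM homeobox gene of striatonigral neurons, flanked 13 peaks, the highest of them chr13:116096600-116097080, 201.3 kb away, at 22.3-fold and 19.05-fold. Meis1, the closest relative of Meis2, also flanked 13, with median folds of 9.41 and 7.44. The teashirt gene Tshz1 flanked 11 peaks at 21.7 per Mb (9.68 and 9.31), and Mef2c flanked 10 at 7.35 per Mb (8.83 and 8.68). Bcl11b flanked 5 of lower height (5.29 and 6.38), and Foxo1, Foxp1 and Sp8 flanked 0, in 0.126, 0.174 and 0.133 Mb of desert.

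Among 58 other forebrain transcription factors, 33 flanked a desert and 30 flanked a desert peak, 212 peaks in all, 4.80% (4.21 to 5.47%) beside 5.31% of desert sequence. Zeb2, a zinc finger repressor of migrating interneurons, flanked 31 peaks, and Nr2f1 flanked 18. The highest were the Zfhx4 peak above, chr13:80428946-80429463 between Nr2f1 and Arrdc3 at 19.5-fold and 21.7-fold, and chr11:24811400-24811948, 638.2 kb from Bcl11a, at 21.03-fold and 19.5-fold.

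The list of synaptic and immunoglobulin-type adhesion genes flanked the largest set. It was drawn up by gene name and also took in Csmd genes, Fstl5, Dpp6 and Dpp10, whose role in adhesion was not checked. Of 55 genes, 33 flanked a desert and 31 flanked a desert peak, giving 614 peaks, 13.9% (12.9 to 14.96%), beside 13.35% of desert sequence. Lrrc4c and Slitrk5 flanked 55 peaks each, Ncam2 53, Cntnap5a 47 and Cntnap5b 45. After the Csmd1 peak described above, the highest were chr1:99183238-99183763, 588.8 kb from Cntnap5b, at 22.95-fold and 22.3-fold, and chr14:113256248-113256763, 1573 kb from Slitrk5, at 20.9-fold and 21.25-fold.

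Cadherin and protocadherin genes flanked fewer peaks than their sequence share. Of 35 genes 20 flanked a desert, and 19 of these flanked 453 peaks, 10.3% (9.40 to 11.2%), beside 11.55% of desert sequence, a density of 9.66 per Mb. Pcdh7 flanked 70 peaks, Pcdh17 52, Cdh8 42 and Pcdh10 41, whose median folds of 10.6 and 9.92 were above those of all desert peaks. The highest after the Pcdh18 peak were chr18:17661168-17661743, 852.1 kb from the N-cadherin gene Cdh2, at 21.9-fold and 19.99-fold, and chr8:102246323-102246859 between Cdh8 and Cdh11 at 21.45-fold and 19.8-fold.

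Axon guidance genes and ion channels gave similar shares. Of 71 axon guidance genes 20 flanked a desert and 19 flanked 213 peaks, 4.82% (4.23 to 5.50%), beside 5.505% of desert sequence, which lies at the upper bound. The ephrin receptor gene Epha7 flanked 35 peaks, the ephrin genes Efna5 27 and Efnb2 22, and the netrin receptor gene Unc5d 25. The highest after the Slit2 peak were chr8:7330213-7330791, 1287 kb from Efnb2, at 20.15-fold and 21.1-fold, and chr16:61369613-61370159, 759.0 kb from Epha6, at 19.9-fold and 19.7-fold. Of 207 ion channel and receptor genes 36 flanked a desert and 30 flanked 224 peaks, 5.07% (4.46 to 5.76%), beside 5.55% of sequence. The highest after the Gabrg1 peak were chr10:46918863-46919315, between Hace1 and the kainate receptor gene Grik2, at 21.4-fold and 19.5-fold, and chr15:47180595-47181125, between the potassium channel gene Kcnv1 and Csmd3, at 19.25-fold and 19.6-fold.

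Olfactory and vomeronasal receptor genes, which are not known for a role in the LGE, exceeded their sequence share on few peaks. Of 1461 genes 4 flanked a desert, and 2 of these flanked 18 peaks, 0.408% (0.258 to 0.643%), beside 0.128% of desert sequence. The outermost gene of chromosome 16, Olfr161, accounted for 15 of the 18, in 0.379 Mb that also held 7 no-antibody peaks, at median folds of 5.53 and 5.06. The highest of the list were chr19:14228654-14229149 (15.25-fold and 10.8-fold) and chr19:14161923-14162104 (7.64-fold and 10.8-fold), both between Olfr1505 and the corepressor gene Tle4, and chr16:3101088-3101490 near Olfr161 (8.15-fold and 7.604-fold). A peak between genes of different lists counts in each.

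**Figure D4:**
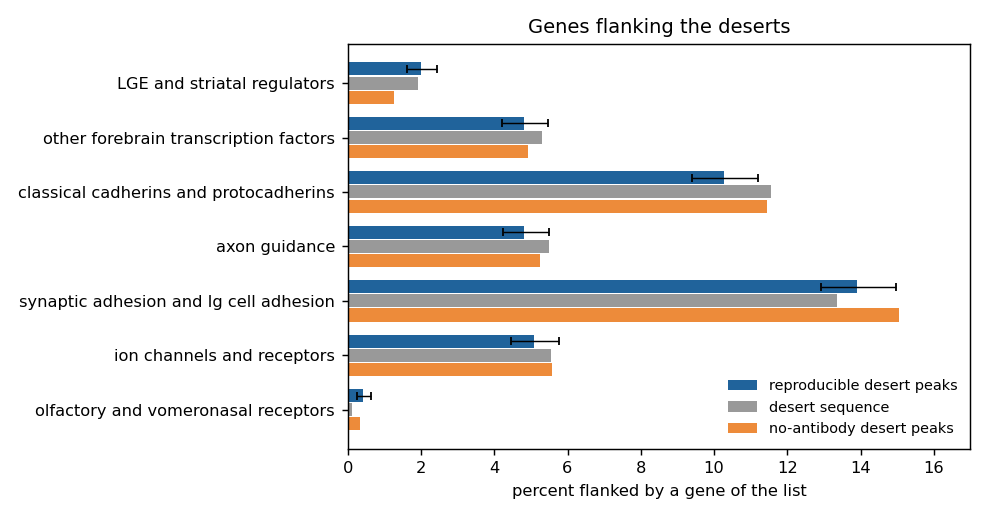
Percent of desert peaks (blue, bars with 95% Wilson intervals), of desert sequence (grey) and of no-antibody desert peaks (orange) flanked by a gene of each of 7 lists. The 3 shares are close in most lists, such as 13.9%, 13.35% and 15.04% for synaptic and immunoglobulin-type adhesion genes.

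Some spacings between neighbouring desert peaks were more frequent than others. The median desert peak was 25.2 kb from the nearest other, 34.5% (33.1 to 35.9%) had another within 10 kb and 16.5% within 2 kb. Peaks each within 10 kb of the next formed 629 runs, of which 441 held 2 peaks and 12 held at least 5. Between 3 and 9 kb the median number of neighbouring pairs in a bin of 100 bp was 5. Pairs were more frequent under 1 kb, with 24 to 36 in each bin from 0.5 to 1.0 kb. Above these, 67 pairs had summits 1.0 to 1.1 kb apart and 83 were 1.1 to 1.2 kb apart, and 7 were 1.3 to 1.4 kb apart. Against the median of 5, there were 34 pairs at 4.5 to 4.6 kb, 16 at 4.6 to 4.7 kb, 20 at 5.6 to 5.7 kb and 17 at 5.7 to 5.8 kb. These bins were picked after the distribution was seen, so no test was made.

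**Figure D5:**
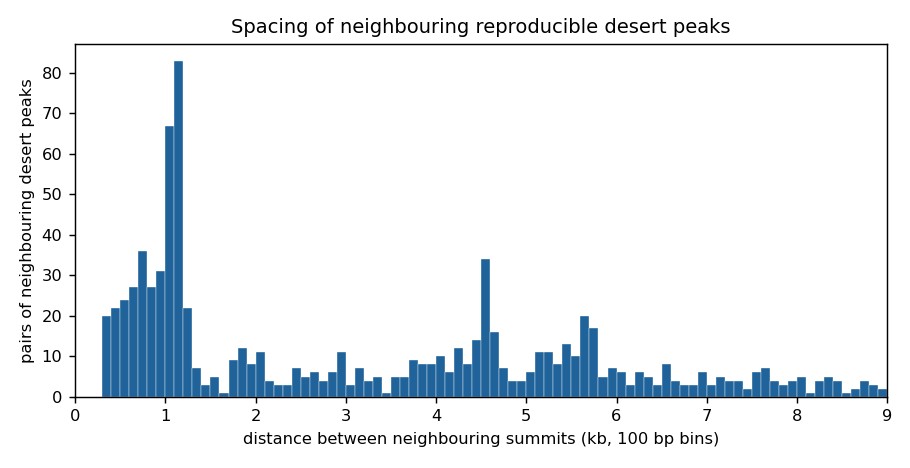
Number of neighbouring pairs of desert peaks (y axis) by the distance between their replicate 1 summits in kb (x axis, bins of 100 bp). Counts stand above their surroundings near 1.1 kb, with 83 pairs in the highest bin, near 4.5 kb with 34 and near 5.6 kb with 20.

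Similar spacings were found among the replicate 2 partner summits and nearer to genes. Partner summits in replicate 2 gave 45 and 91 pairs in the 2 bins from 1.0 to 1.2 kb, 33 at 4.5 to 4.6 kb and 19 at 5.6 to 5.7 kb. The rule required each partner to overlap its desert peak, and the median offset between their summits was 26 bp. The partner spacings are therefore not an independent repeat. Intergenic peaks up to 200 kb from a protein-coding gene, with a median of 15 pairs per bin, gave 151 and 164 pairs in the first 2 bins and 107 at 4.5 to 4.6 kb. No-antibody peaks in deserts, with a median of 1, gave 8 and 9 pairs in the first 2, 0 at 4.5 to 4.7 kb, and 10 and 9 in the bins from 5.6 to 5.8 kb. The 293 desert peaks of the pairs 1.0 to 1.2 kb apart lay on 17 chromosomes, with median folds of 7.001 and 6.79, and 30.7% of them had a no-antibody peak within 10 kb. The 100 peaks of the pairs 4.5 to 4.7 kb apart also lay on 17 chromosomes, at 6.10-fold and 6.002-fold.

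The pairs 5.6 to 5.8 kb apart numbered 37, on 16 chromosomes. In 4 of the 37, all on chromosome 12, the table placed a pseudogene of similar length between the summits. A share for other spacings is not given here, so the 4 do not account for the spacing. Gm51996, of 4305 bp, had summits 63 bp before it and 1362 bp after it, at 8.26-fold and 7.47-fold in replicate 1. Gm51976 and Gm51977, of 4304 bp each, had summits 58 and 39 bp before them and 1335 and 1273 bp after them. Gm51981, of 4316 bp, had them in the opposite order, 1281 bp before and 70 bp after. Whether these pseudogenes share sequence was not tested, and the placing of reads with several matches is not stated in the sources used.

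Some desert peaks were near a gene that does not code for protein. Within 1 kb of an annotated gene lay 53 of the 4416 desert peaks, 1.2%, at median folds of 7.06 and 6.74. The nearest was a long noncoding RNA gene for 27, a pseudogene for 22, a transcribed pseudogene for 2 and a transfer RNA gene for 2. The rule leaves out summits inside genes and near protein-coding genes. The matching share of desert sequence is not given here, so the count cannot be called low or high. The highest of these, picked after their values were seen, were chr1:120994023-120994857 beside the long noncoding RNA gene Gm34698 between En1 and Insig2 (17.9-fold and 16.8-fold), chr1:67587405-67587726 beside Kif22-ps between Cps1 and the neuregulin receptor gene Erbb4 (16.5-fold and 19.4-fold), and chr11:7869814-7870219 beside a transfer RNA gene (17.1-fold and 15.5-fold). None of the 53 was nearest to a microRNA gene.

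At the low end, 24 desert peaks were under 3-fold in both replicates, with a median pileup of 108.5 tags in replicate 1. Of these, 12 lay at chr9:3004030-3037300, at the start of the listed part of chromosome 9, with folds of 1.67 to 2.05 in replicate 1 and 1.75 to 2.12 in replicate 2 and pileups of 113 to 207 tags. The no-antibody list had 11 peaks in the same span. Another 7 lay at chr10:27818536-27824108, near the laminin gene Lama2, with folds of 1.73 to 2.53 and pileups of 79 to 104 tags in replicate 1, and 3 lay at chr8:52304624-52308657. The remaining peaks were chr18:82164797-82164989, with pileups of 48 and 49 tags, and chr15:14731385-14731722, with 11 and 10. No no-antibody peak was listed in the spans on chromosomes 10 and 8. A list of high-signal regions of mm10 was not used here, so these peaks were kept in all counts, of which they make up 24 of 4416.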

How the data were processed

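CUT&Tag libraries were grouped by their labels into 2 MEIS2 replicates and 1 no-antibody library. Per the file headers, the authors called peaks in each library separately with MACS 2.2.7.1, without a control, at a q cutoff of 0.05 and with at most 1 tag kept per position; mm10, MACS2 2.1.4, Bowtie2 2.3.4, Picard and Trimmomatic stand in the submitters' processing notes, whose MACS version thus differs from the headers. The placing of reads with several matches is not stated in the sources used. The headers give 74259592, 79760948 and 72763762 tags before repeated positions were dropped and redundant rates of 0.90, 0.92 and 0.91, so the number of kept tags limits the precision of each pileup.

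The deposited signal is the pileup at the summit, without scaling for depth. Fold enrichment was deposited as a ratio of pileup plus 1 to expected pileup plus 1, from which the expected pileup was computed. Values of −log10 p-value and −log10 q-value were deposited from MACS. Deposited 1-based positions were used as given.

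Overlaps, distances and Wilson intervals were computed with Python 3.11.15, pandas 2.3.3, numpy 2.4.6 and scipy 1.17.1, and overlap and distance functions were tested on simulated data. Genes came from a RefSeq table of GRCm38.p6 with 49997 rows. On chromosomes 1 to 19, 328 rows starting below the lowest peak (3000107) were left out as positions on other sequences; keeping them gave the same 4416 desert peaks. Peaks on X, Y and other sequences were left out. Densities used points 1 kb apart from the lowest peak to the last gene or peak of each chromosome, assembly gaps included. Named items were the 10 highest, 5 farthest and 5 widest desert peaks, 3 on each side of the limit, the 5 deserts with the most peaks (ties by shorter core) and up to 3 per gene list; others are marked as chosen after their values were seen. The members and the 7 gene lists were chosen with earlier results of these data known. The planned motif share around summits needs a genome sequence and was not run. Alternatives were a 50% reciprocal overlap, −log10 q of at least 5, limits of 100 and 500 kb, distance to any gene, 1 kb clearance from no-antibody peaks, X and Y added, replicate 2 peaks as members, each MEIS2 replicate left out, and, added after seeing the data, 10 kb clearance. Some results are not reported here.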

Additional observations from a re-analysis of the deposited data

How the results depend on the processing

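Of 73 recomputed values over 11 alternative settings, 38 stayed within their limits and 35 moved. The limit was counting error for shares and 1.5 times the count for numbers of peaks. For medians it was the standard deviation between the replicates, 0.494 for fold and 14.5 bp for width. The number of desert peaks was 1849 with a limit of 500 kb and 621 with 200 kb from a gene of any kind, which are subsets by construction. Without a MEIS2 replicate there is no partner rule: the number ran from 6002 without replicate 2 to 8103 without replicate 1, the desert share from 8.68 to 11.35%, the median width from 239 to 284 bp and the share within 10 kb of another from 40.87 to 42.58%, and the median folds were 7.056 (replicate 1) and 5.739 (replicate 2). The desert share was 11.06% with 50% reciprocal overlap, 11.78% with −log10 q of at least 5, 14.59% and 4.139% with limits of 100 and 500 kb, 1.39% with any gene, 10.62% with X and Y and 8.747% with 10 kb clearance. Reciprocal overlap gave median folds of 8.893 and 8.244, a width of 355 bp, a partner share of 67.94% and 31.3% within 10 kb of another. The q limit gave 9.815, 8.927, 396 bp, 71.19% and 30.93%. It gave 3754 desert peaks, whereas 3415 of the 4416 reached that q in both replicates. At least 15-fold in both were 11.61% of the 3754 and 7.971% of the 4416. The q-limit set thus also held peaks outside the 4416, and its values are not those of the 4416 at a stricter q. The partner share was 71.66% at 100 kb, 75.29% at 500 kb, 55.04% from the replicate 2 list (where the median width was 310 bp) and 72.25% with 10 kb clearance. The share within 10 kb of another was 32.21% with any gene and 30.8% with 10 kb clearance. For moves not fixed by an alternative's own construction the cause was not tested. Desert peaks kept the highest median fold of the 5 position classes in both replicates with 10 kb clearance (8.29 and 7.62). They also had it in the differently composed set of the q limit (9.82 and 8.93). Intergenic peaks 50 to 200 kb away stayed close, at 9.45 and 8.76 with the q limit and 8.15 and 7.07 with 10 kb clearance. No paired analysis was possible because the groups share 1 replicate number and no result comes from a test. The motif share was not run, and a partner share without a replicate cannot be had. The median desert peak rests on 18 and 15 tags.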
